A study of Schizosaccharomyces pombe with 70 samples.

Results

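The genes described here are 7 of the 4929 gene features on the array: lsd90, ddr48, gpd3, meu27, SPCC737.04, SPBC19C7.04C and SPCC1739.08C. The last 3 have no gene name in the platform annotation, which gives them, like other unnamed genes, with the prefix SPOM_ that is left out here. They were chosen by their log2 ratios at 0 min, where untreated checkpoint mutants of fission yeast (Schizosaccharomyces pombe) held more of their transcript than untreated wild type. Values of untreated cells are therefore given as a description with no test, and tests were run on the treated cells, whose values the rule did not use. The treated cells are not fully independent of the choice, since it was made with earlier results of these data known and samples of a strain may share cultures. The name of the set holds gene by gene and not strain by strain: meu27 was high in untreated chk1 cells and not in the other mutants, gpd3 was not high in untreated chk1 cells, and SPBC19C7.04C was not high in untreated cds1 cells.

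The groups were the single mutants rad3, cds1 and chk1, the double mutant rad3 sep1, and wild type, each as an asynchronous culture sampled at 0, 10, 30, 60 and 120 min in 8 mM hydroxyurea (HU). HU inhibits ribonucleotide reductase and so stalls DNA replication. The labels name the mutated genes and give no allele, marker or number of clones, and they do not say whether the times of a replicate came from one culture. On 2-colour arrays, cDNA of each sample (Cy5) was set against cDNA of untreated wild-type cells (Cy3), and every value below is the log2 of that ratio unless it is called a difference. A difference between strains is given as mutant minus wild type, so that the common reference cancels.

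In a normal cell, Rad3 is the sensor kinase of the DNA structure checkpoints and activates 2 effector kinases, Cds1 when replication stalls and Chk1 when DNA is damaged. Sep1 is a transcription factor of the forkhead class that acts on periodic genes of mitosis and cell separation. Fission yeast also has a core set of environmental stress genes, induced by many stresses through the Sty1 MAP kinase and the transcription factor Atf1. Of the 7 genes, gpd3 encodes a glyceraldehyde-3-phosphate dehydrogenase of glycolysis, ddr48 bears the name of a DNA damage-responsive gene of budding yeast, and meu27 belongs to the genes named for their upregulation in meiosis.

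The 70 arrays, 15 for each single mutant and wild type and 10 for rad3 sep1, gave 61 samples, because the arrays of 9 pairs within a group were near-identical and each such pair, all 5 of rad3 sep1 among them, was averaged, although the series text calls its repeats biological. There were 14 samples of rad3, 15 of cds1, 14 of chk1, 5 of rad3 sep1 and 13 of wild type. The double mutant thus had 1 sample per time and was assumed to vary like the other groups. Each array held 9727 to 9854 values, and precision is limited by how many arrays there were. The labels were checked by the mutated genes over the treated times. The level of rad3 was -2.16 ± 0.54 in rad3 cells (SD, n = 11) and -2.36 ± 0.04 in rad3 sep1 cells (SD, n = 4), against -0.15 ± 0.14 in wild type (SD, n = 10). Transcript of cds1 stood at -2.52 ± 0.31 in cds1 cells (SD, n = 12) against 0.27 ± 0.21 in wild type (SD, n = 10). Transcript of sep1 stood at -3.50 ± 0.17 in rad3 sep1 cells (SD, n = 4) against -0.03 ± 0.20 in wild type (SD, n = 10). For chk1 the gap was narrower, -1.37 ± 0.19 in chk1 cells (SD, n = 11) against -0.58 ± 0.18 in wild type (SD, n = 10). The strains also differed in ura4, a common selection marker, which differed from wild type by -1.55 in cds1 and by -0.30 in chk1, both past the threshold. Its part in the results was not tested, nor was that of slide or scan, which the sources used here do not give.

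Over the 4 treated times, 6 of the 7 genes were higher in rad3 than in wild type, 4 in cds1, 5 in chk1 and 6 in rad3 sep1, at an adjusted p under 0.05 (limma, Benjamini-Hochberg over 4921 genes). Both ddr48 and SPCC1739.08C are in all 4 counts, although their probes matched across the 2 genes, as described below. Each count is to be read against the share of all genes called higher in the same comparison. That share was 6.32% in rad3, 5.93% in cds1, 0.427% in chk1 and 25.3% in rad3 sep1. The median difference of the 7 genes was 1.29 in rad3, 0.47 in cds1, 0.41 in chk1 and 1.01 in rad3 sep1, while the median of all genes lay between -0.02 and -0.01. None of the 7 was called lower, while 5.3%, 8.15%, 0.264% and 29.1% of all genes were lower in rad3, cds1, chk1 and rad3 sep1. In either direction 11.6% of all genes were called in rad3, 14.1% in cds1, 0.691% in chk1 and 54.4% in rad3 sep1. Without the 10 min or the 30 min samples the count in chk1 was 3 and 2, and with 1 probe it was 2 and 3. The 4 comparisons share the wild-type samples, so their values stand side by side and their overlap is not counted as a result. Times of a replicate enter the fit as independent samples, so SE and p over the treated times may be too small. In bulk RNA, more cells that express a gene and more transcript per cell cannot be told apart.

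**Figure D1:**
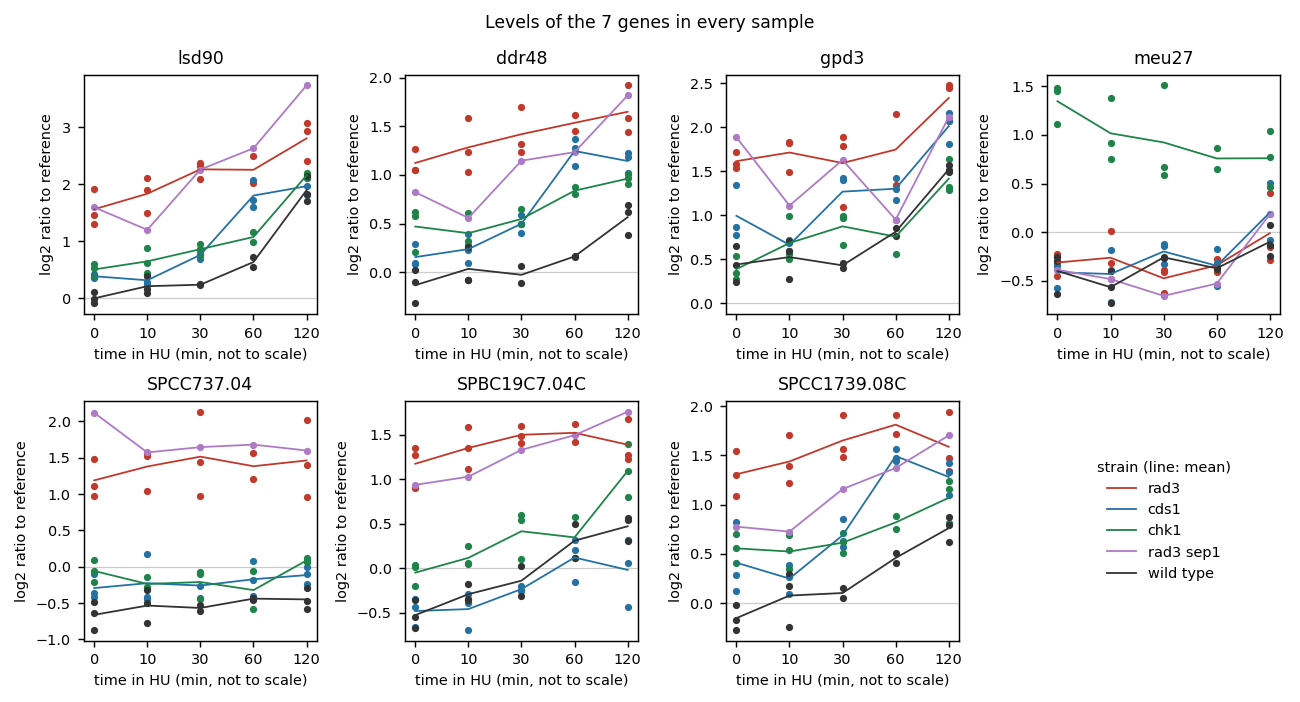
Log2 ratio of each of the 7 genes to the untreated wild-type reference (vertical axis) against time in HU in min (horizontal axis, not to scale), with a point per sample and a line through the mean of each strain. The rad3 points lie above the wild-type points at every time for all genes except meu27, and for meu27 the chk1 points do.

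At single times, 6 of the 7 genes were called higher in rad3 at each of 10, 30, 60 and 120 min, against 0.935%, 0.752%, 1.02% and 8.66% of all genes. In cds1 the counts were 0 at 10 min and 0 at 30 min by limma, with 0 and 4 genes of the 7 at an unadjusted p under 0.05. Of all 4921 genes, 248 and 210 were under that unadjusted p in cds1. In that strain 3 genes were higher at 60 min and 2 were higher and 1 lower at 120 min. All genes called higher in cds1 made up 0.0813%, 0.0203%, 0.914% and 6.48% at the 4 times in order, and 6.3% were lower at 120 min. In chk1, meu27 was called at 10 and 30 min, where 0.0203% and 0.0406% of all genes were higher. At 60 and 120 min limma called 0 of the 7 genes in chk1 and 0% of all genes, with 3 and 4 of the 7 genes at an unadjusted p under 0.05. Under that unadjusted p were 265 and 491 of all 4921 genes. In rad3 sep1, 5, 6, 5 and 5 genes were called higher at 10, 30, 60 and 120 min, against 8.13%, 4.29%, 6.89% and 15.3% of all genes. Each of these 4 tests sets 1 rad3 sep1 sample, whose spread is taken from the other groups, against wild type, so no replicate of the strain bears on them.

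lsd90 was raised in all 4 mutants during treatment, most in the 2 strains mutated in rad3. lsd90 in rad3 cells had log2 ratios of 1.30, 1.92 and 1.46 at 0 min, then 1.49, 2.11 and 1.90 at 10 min, 2.09, 2.38 and 2.32 at 30 min and 2.01 and 2.49 at 60 min, and lastly 2.41, 2.93 and 3.08 at 120 min. lsd90 in cds1 cells had log2 ratios of 0.38, 0.36 and 0.42 at 0 min, then 0.24, 0.29 and 0.42 at 10 min, 0.76, 0.83 and 0.69 at 30 min and 2.08, 1.73 and 1.60 at 60 min, and lastly 1.97, 2.11 and 1.82 at 120 min. lsd90 in chk1 cells had log2 ratios of 0.39, 0.54 and 0.59 at 0 min, then 0.61, 0.88 and 0.45 at 10 min, 0.77, 0.94 and 0.87 at 30 min and 1.17 and 0.98 at 60 min, and lastly 2.12, 2.19 and 2.16 at 120 min. Values in rad3 were thus already high without HU and rose further, while cds1 and chk1 cells began nearer to wild type. lsd90 in rad3 sep1 cells had log2 ratios of 1.60 at 0 min, then 1.20 at 10 min, 2.26 at 30 min and 2.63 at 60 min, and lastly 3.73 at 120 min. lsd90 in wild-type cells had log2 ratios of -0.09, 0.10 and -0.02 at 0 min, then 0.09, 0.39 and 0.16 at 10 min, 0.24 and 0.23 at 30 min and 0.55 and 0.72 at 60 min, and lastly 1.82, 2.15 and 1.71 at 120 min. The rad3 and rad3 sep1 samples lay above every wild-type sample of the same time at all 4 treated times. The cds1 samples did so at 30 and 60 min, and at 120 min they overlapped wild type. The chk1 samples did so at 10, 30 and 60 min.

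Over the treated times lsd90 was 2.92-fold higher in rad3 than in wild type, a log2 difference of 1.54 ± 0.08 (SE, adjusted p = 2e-19 by limma). The differences were 0.47 ± 0.08 in cds1 (adjusted p = 3.8e-05), 0.44 ± 0.08 in chk1 (adjusted p = 0.0026) and 1.71 ± 0.11 in rad3 sep1 (adjusted p = 3.5e-17). The gap between rad3 and wild type was 2.03 ± 0.17 at 30 min and 0.91 ± 0.15 at 120 min, where wild-type cells had risen as well. In cds1 the gap stood out at 60 min, 1.17 ± 0.17, and was 0.07 ± 0.15 at 120 min. Its 2 probes rose and fell together (r = 0.89 over 61 samples), so the pattern does not rest on a single spot. They parted in one comparison: rad3 sep1 minus rad3 was -0.51 ± 0.13 on the first probe and 0.84 ± 0.14 on the second, both past the threshold, with a mean of 0.17 ± 0.11 that was not.

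gpd3 had its highest mean over the treated times in rad3 and was above wild type in cds1 and rad3 sep1 as well. gpd3 in rad3 cells had log2 ratios of 1.54, 1.72 and 1.59 at 0 min, then 1.49, 1.83 and 1.82 at 10 min, 1.10, 1.89 and 1.79 at 30 min and 1.34 and 2.15 at 60 min, and lastly 2.07, 2.47 and 2.45 at 120 min. gpd3 in cds1 cells had log2 ratios of 1.35, 0.77 and 0.86 at 0 min, then 0.68, 0.59 and 0.72 at 10 min, 1.42, 0.98 and 1.40 at 30 min and 1.42, 1.18 and 1.30 at 60 min, and lastly 2.16, 1.81 and 2.07 at 120 min. gpd3 in chk1 cells had log2 ratios of 0.54, 0.27 and 0.35 at 0 min, then 0.99, 0.50 and 0.56 at 10 min, 0.96, 0.99 and 0.67 at 30 min and 0.95 and 0.57 at 60 min, and lastly 1.64, 1.29 and 1.32 at 120 min. Replicates of gpd3 spread widely, with rad3 samples from 1.10 to 2.47 over the treated times. gpd3 in rad3 sep1 cells had log2 ratios of 1.89 at 0 min, then 1.11 at 10 min, 1.63 at 30 min and 0.95 at 60 min, and lastly 2.11 at 120 min. gpd3 in wild-type cells had log2 ratios of 0.65, 0.24 and 0.43 at 0 min, then 0.59, 0.71 and 0.28 at 10 min, 0.40 and 0.46 at 30 min and 0.77 and 0.86 at 60 min, and lastly 1.51, 1.57 and 1.49 at 120 min. Wild type at 0 min did not lie at 0 although the reference was also untreated wild type. At every treated time the rad3 samples lay above all wild-type samples. The chk1 samples did so at 30 min alone.

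The difference from wild type over the treated times was 1.02 ± 0.10 in rad3 (2.03-fold, adjusted p = 1.1e-11), 0.49 ± 0.09 in cds1 (adjusted p = 0.00019) and 0.63 ± 0.13 in rad3 sep1 (adjusted p = 7.5e-05). At 60 min the gap of rad3 was 0.93 ± 0.22, a call lost in 3 of the 4 fits that left out 1 sample (0.53 to 1.33). In chk1 the difference over the treated times was 0.11 ± 0.10 and missed the threshold (adjusted p = 0.60). tdh1, the other glyceraldehyde-3-phosphate dehydrogenase gene, averaged 0.27 ± 0.30 in rad3 (SD, n = 11), 0.42 ± 0.28 in cds1 (SD, n = 12), 0.39 ± 0.21 in chk1 (SD, n = 11) and 0.16 ± 0.14 in rad3 sep1 (SD, n = 4), against 0.36 ± 0.31 in wild type (SD, n = 10). None of its differences from wild type passed the threshold; that in rad3 was -0.07 ± 0.11. The 2 genes are close paralogs, and whether their probes share signal was not tested. Among 12 other measured glycolysis genes, 0 were higher and 1 was lower in rad3 (pfk1, phosphofructokinase, at -0.23 ± 0.05), with 0 and 1 in cds1 and 0 and 0 in chk1. In rad3 sep1, 10 of the 12 were higher and 1 lower, with a median difference of 0.69. The shares of all genes higher were 6.32% in rad3, 5.93% in cds1, 0.427% in chk1 and 25.3% in rad3 sep1. Those lower were 5.3%, 8.15%, 0.264% and 29.1% in the same order.

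ddr48 and SPCC1739.08C are described together because their patterns matched and because the difference between rad3 and wild type rests on 1 of the 2 probes in each. ddr48 in rad3 cells had log2 ratios of 1.05, 1.27 and 1.05 at 0 min, then 1.03, 1.58 and 1.24 at 10 min, 1.32, 1.70 and 1.24 at 30 min and 1.46 and 1.61 at 60 min, and lastly 1.59, 1.92 and 1.44 at 120 min. ddr48 in cds1 cells had log2 ratios of 0.08, 0.09 and 0.29 at 0 min, then 0.39, 0.10 and 0.23 at 10 min, 0.41, 0.50 and 0.59 at 30 min and 1.37, 1.10 and 1.28 at 60 min, and lastly 1.22, 1.02 and 1.19 at 120 min. ddr48 in chk1 cells had log2 ratios of 0.62, 0.21 and 0.58 at 0 min, then 0.61, 0.28 and 0.32 at 10 min, 0.65, 0.50 and 0.50 at 30 min and 0.88 and 0.80 at 60 min, and lastly 1.01, 0.97 and 0.91 at 120 min. The rad3 samples were above 1 at every time, and cds1 crossed 1 at 60 min. ddr48 in rad3 sep1 cells had log2 ratios of 0.82 at 0 min, then 0.56 at 10 min, 1.15 at 30 min and 1.23 at 60 min, and lastly 1.82 at 120 min. ddr48 in wild-type cells had log2 ratios of 0.02, -0.32 and -0.10 at 0 min, then -0.08, 0.26 and -0.08 at 10 min, 0.06 and -0.12 at 30 min and 0.17 and 0.16 at 60 min, and lastly 0.61, 0.69 and 0.39 at 120 min. All rad3, chk1 and rad3 sep1 samples lay above the wild-type samples of the same time at 10, 30, 60 and 120 min. The cds1 samples did so from 30 min on.

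SPCC1739.08C followed the same course. SPCC1739.08C in rad3 cells had log2 ratios of 1.30, 1.54 and 1.08 at 0 min, then 1.22, 1.71 and 1.39 at 10 min, 1.48, 1.91 and 1.56 at 30 min and 1.72 and 1.91 at 60 min, and lastly 1.47, 1.94 and 1.35 at 120 min. SPCC1739.08C in cds1 cells had log2 ratios of 0.82, 0.12 and 0.29 at 0 min, then 0.39, 0.09 and 0.27 at 10 min, 0.57, 0.63 and 0.86 at 30 min and 1.57, 1.47 and 1.44 at 60 min, and lastly 1.42, 1.09 and 1.33 at 120 min. SPCC1739.08C in chk1 cells had log2 ratios of 0.70, 0.41 and 0.56 at 0 min, then 0.69, 0.54 and 0.34 at 10 min, 0.51, 0.71 and 0.62 at 30 min and 0.88 and 0.75 at 60 min, and lastly 1.24, 1.16 and 0.81 at 120 min. Untreated cds1 samples spread from 0.12 to 0.82, so that its level before HU is loosely set. SPCC1739.08C in rad3 sep1 cells had log2 ratios of 0.78 at 0 min, then 0.73 at 10 min, 1.16 at 30 min and 1.37 at 60 min, and lastly 1.70 at 120 min. SPCC1739.08C in wild-type cells had log2 ratios of -0.17, -0.27 and -0.02 at 0 min, then 0.17, 0.29 and -0.24 at 10 min, 0.15 and 0.05 at 30 min and 0.51 and 0.41 at 60 min, and lastly 0.79, 0.87 and 0.62 at 120 min. In rad3 and rad3 sep1 every sample lay above the wild-type samples of its time at all 4 treated times. In cds1 and chk1 this held at 3 of the 4 times.

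Averaged over probes, ddr48 differed from wild type by 1.29 ± 0.07 in rad3 (2.44-fold, adjusted p = 6e-19), 0.60 ± 0.07 in cds1 (adjusted p = 1.4e-08), 0.50 ± 0.07 in chk1 (adjusted p = 1.4e-05) and 1.01 ± 0.10 in rad3 sep1 (adjusted p = 1e-11). For SPCC1739.08C the differences were 1.27 ± 0.09 in rad3 (adjusted p = 2e-16), 0.58 ± 0.08 in cds1 (adjusted p = 1.1e-06), 0.41 ± 0.09 in chk1 (adjusted p = 0.0076) and 0.89 ± 0.11 in rad3 sep1 (adjusted p = 1.6e-08). These means join a probe that moved and one that did not pass the threshold. On the first ddr48 probe alone, rad3 minus wild type was 2.26 ± 0.13, against 0.31 ± 0.13 on the second (adjusted p = 0.18). On the second SPCC1739.08C probe it was 2.30 ± 0.12, against 0.25 ± 0.11 on the first (adjusted p = 0.22). The mean over probes thus lies below the difference on 1 probe and above that on the other.

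The probes matched across the 2 genes better than within them. Over 61 samples r was 0.001 between both ddr48 probes and 0.12 between both SPCC1739.08C probes. It was 0.98 between the first ddr48 probe and the second SPCC1739.08C probe, and 0.71 between the remaining pair. The same held for deviations from the group means over the 56 samples in groups of more than 1: 0.82 and 0.68 across the genes, against -0.47 within ddr48 and 0.01 within SPCC1739.08C. The RefSeq table (ASM294v3) places ddr48 on chromosome I and SPCC1739.08C on chromosome III. Probe sequences were not analysed here, so which of the 4 probes measures which transcript was not tested. The 2 genes cannot be taken as independent, although each count of called genes takes them as 2. In chk1 the difference of ddr48 from wild type was 0.51 ± 0.13 and 0.50 ± 0.13 on the 2 probes, neither past the threshold alone.

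**Figure D2:**
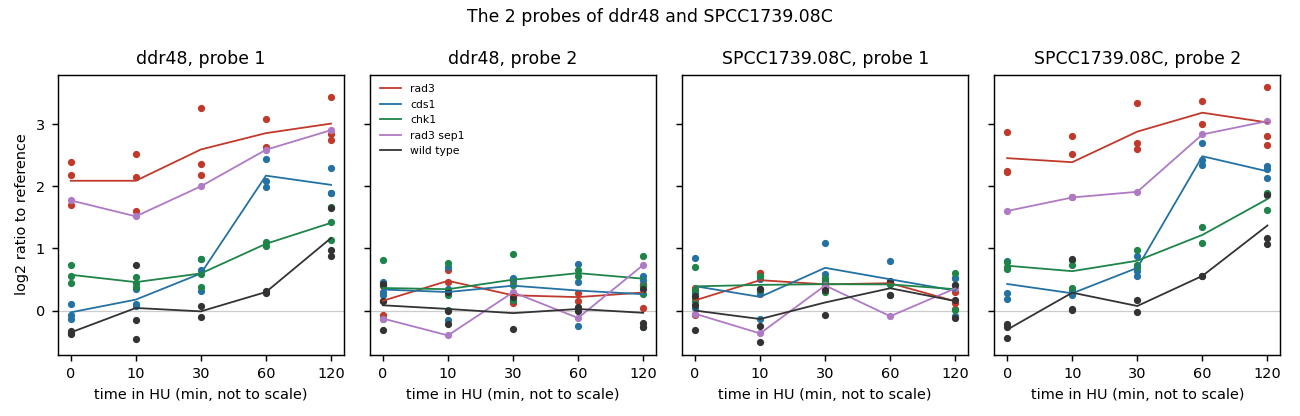
Log2 ratio to the untreated wild-type reference (vertical axis) against time in HU in min (horizontal axis, not to scale) for each probe of ddr48 and SPCC1739.08C, with points for samples and lines for strain means. The first ddr48 probe and the second SPCC1739.08C probe separate rad3 from wild type by 2.26 and 2.30 over the treated times, and the other 2 probes by 0.31 and 0.25.

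SPCC737.04 and SPBC19C7.04C, for which no role is given here, had their highest treated means in the 2 strains mutated in rad3. SPCC737.04 in rad3 cells had log2 ratios of 1.11, 1.48 and 0.98 at 0 min, then 1.05, 1.57 and 1.52 at 10 min, 0.97, 2.13 and 1.44 at 30 min and 1.20 and 1.57 at 60 min, and lastly 1.40, 2.02 and 0.96 at 120 min. SPCC737.04 in rad3 sep1 cells had log2 ratios of 2.12 at 0 min, then 1.57 at 10 min, 1.65 at 30 min and 1.68 at 60 min, and lastly 1.60 at 120 min. SPCC737.04 in wild-type cells had log2 ratios of -0.48, -0.87 and -0.64 at 0 min, then -0.50, -0.32 and -0.78 at 10 min, -0.53 and -0.60 at 30 min and -0.43 and -0.45 at 60 min, and lastly -0.30, -0.58 and -0.47 at 120 min. The samples of rad3 and rad3 sep1 lay above 0.9 at every time, those of wild type below -0.2. SPCC737.04 in cds1 cells had log2 ratios of -0.10, -0.41 and -0.37 at 0 min, then 0.18, -0.44 and -0.42 at 10 min, -0.26, -0.09 and -0.42 at 30 min and 0.08, -0.19 and -0.40 at 60 min, and lastly -0.10, -0.24 and 0.00 at 120 min. SPCC737.04 in chk1 cells had log2 ratios of -0.21, 0.09 and -0.05 at 0 min, then -0.15, -0.27 and -0.29 at 10 min, -0.08, -0.10 and -0.45 at 30 min and -0.06 and -0.58 at 60 min, and lastly 0.12, 0.07 and 0.07 at 120 min. These 2 strains lay mostly between, close to 0 and above all wild-type samples at 3 of the 4 treated times.

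For SPCC737.04 the difference from wild type over the treated times was 1.93 ± 0.11 in rad3 (3.82-fold, adjusted p = 1.3e-18 by limma). In rad3 sep1 it was 2.12 ± 0.15 (4.36-fold, adjusted p = 5.7e-16). By the mean of both probes these were the widest of the 7 genes in both strains. In rad3, 1 probe each of ddr48 and SPCC1739.08C differed by more, as given above. The difference of SPCC737.04 in rad3 varied little with time, between 1.82 ± 0.25 at 60 min and 2.08 ± 0.23 at 30 min. Over the treated times it was 0.30 ± 0.11 in cds1 (adjusted p = 0.053) and 0.33 ± 0.11 in chk1 (adjusted p = 0.17), neither past the threshold. Both passed with a replicate block in the fit. Both probes shared the pattern, with r = 0.93 over 61 samples.

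SPBC19C7.04C differed between the 2 effector kinase mutants. SPBC19C7.04C in rad3 cells had log2 ratios of 0.91, 1.35 and 1.27 at 0 min, then 1.12, 1.36 and 1.59 at 10 min, 1.41, 1.60 and 1.49 at 30 min and 1.42 and 1.63 at 60 min, and lastly 1.27, 1.68 and 1.22 at 120 min. SPBC19C7.04C in cds1 cells had log2 ratios of -0.66, -0.44 and -0.35 at 0 min, then -0.30, -0.69 and -0.39 at 10 min, -0.20, -0.24 and -0.26 at 30 min and 0.31, -0.16 and 0.20 at 60 min, and lastly 0.32, -0.44 and 0.06 at 120 min. SPBC19C7.04C in chk1 cells had log2 ratios of 0.02, -0.20 and 0.03 at 0 min, then 0.04, 0.06 and 0.25 at 10 min, 0.54, 0.11 and 0.60 at 30 min and 0.12 and 0.58 at 60 min, and lastly 1.39, 0.80 and 1.09 at 120 min. By 120 min chk1 samples reached 0.80 to 1.39 and overlapped those of rad3, while no cds1 sample exceeded 0.32. SPBC19C7.04C in rad3 sep1 cells had log2 ratios of 0.94 at 0 min, then 1.03 at 10 min, 1.33 at 30 min and 1.50 at 60 min, and lastly 1.76 at 120 min. SPBC19C7.04C in wild-type cells had log2 ratios of -0.36, -0.67 and -0.55 at 0 min, then -0.17, -0.35 and -0.35 at 10 min, 0.03 and -0.31 at 30 min and 0.12 and 0.50 at 60 min, and lastly 0.31, 0.56 and 0.54 at 120 min. No cds1 time had all samples above wild type, while chk1 had 3 such times and rad3 and rad3 sep1 had 4. The difference from wild type was 1.36 ± 0.09 in rad3 (2.56-fold, adjusted p = 2e-16), 0.41 ± 0.09 in chk1 (adjusted p = 0.015) and 1.32 ± 0.12 in rad3 sep1 (adjusted p = 3e-12). In cds1 it was -0.24 ± 0.09 (adjusted p = 0.066), and at 120 min SPBC19C7.04C was lower in cds1, with a difference of -0.49 ± 0.17 (adjusted p = 0.044). That call was lost on leaving out any 1 of 4 of the 6 samples, replicates 2 and 3 of each strain, with values from -0.66 to -0.28. The call in chk1 was lost without replicate 2 of wild type at 30 min or replicate 1 of wild type at 60 min.

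meu27 had a pattern of its own: it was raised in chk1 cells and passed the test in no other strain. meu27 in chk1 cells had log2 ratios of 1.45, 1.48 and 1.11 at 0 min, then 1.38, 0.91 and 0.76 at 10 min, 1.51, 0.59 and 0.67 at 30 min and 0.86 and 0.65 at 60 min, and lastly 0.78, 1.04 and 0.47 at 120 min. meu27 in rad3 cells had log2 ratios of -0.26, -0.46 and -0.23 at 0 min, then -0.48, 0.01 and -0.32 at 10 min, -0.63, -0.41 and -0.39 at 30 min and -0.28 and -0.41 at 60 min, and lastly -0.29, 0.41 and -0.15 at 120 min. meu27 in cds1 cells had log2 ratios of -0.58, -0.32 and -0.35 at 0 min, then -0.19, -0.39 and -0.72 at 10 min, -0.13, -0.14 and -0.33 at 30 min and -0.17, -0.55 and -0.32 at 60 min, and lastly 0.50, -0.08 and 0.18 at 120 min. All chk1 samples were above 0.4, and most samples of rad3 and cds1 were below 0. meu27 in rad3 sep1 cells had log2 ratios of -0.39 at 0 min, then -0.49 at 10 min, -0.66 at 30 min and -0.53 at 60 min, and lastly 0.18 at 120 min. meu27 in wild-type cells had log2 ratios of -0.30, -0.64 and -0.26 at 0 min, then -0.40, -0.57 and -0.74 at 10 min, -0.27 and -0.26 at 30 min and -0.38 and -0.37 at 60 min, and lastly -0.13, 0.08 and -0.25 at 120 min. At each of the 4 treated times all chk1 samples lay above all wild-type samples. The rad3 sep1 sample lay above all wild-type samples at 120 min and below all of them at 30 and 60 min. All rad3 samples lay below wild type at 30 min, and cds1 overlapped wild type at every treated time.

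Over the treated times meu27 was 2.28-fold higher in chk1 than in wild type, a log2 difference of 1.19 ± 0.10 (adjusted p = 1.5e-11). Both probes shared it (r = 0.90 over the samples with both). At 10 min 1 of the probes lacked values in wild type and cds1, where the other probe stood alone. The differences in rad3, cds1 and rad3 sep1 were 0.05 ± 0.10, 0.13 ± 0.10 and -0.05 ± 0.14, none past the threshold. In chk1 it was 1.59 ± 0.19 at 10 min (adjusted p = 3.3e-07), 1.18 ± 0.21 at 30 min (adjusted p = 0.0026), 1.13 ± 0.23 at 60 min (adjusted p = 0.053) and 0.86 ± 0.19 at 120 min (adjusted p = 0.082). The 30 min call was lost in 3 of the 5 fits that left out 1 sample, with values from 0.89 to 1.35. With a replicate block in the fit, the differences at 60 and 120 min passed as well. Among 17 other measured meu genes, 0 were called in either direction in chk1, 1 was higher in rad3 and 3 were higher in cds1, with 4 higher and 1 lower in rad3 sep1. Of all genes, 6.32% were called higher in rad3 and 5.93% in cds1, and 25.3% higher and 29.1% lower in rad3 sep1. In chk1 0.691% of all genes were called in either direction. The median difference of the 17 genes in chk1 was 0.07.

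In the RefSeq gene order (ASM294v3) meu27 is the direct neighbour of chk1 on chromosome III. Of the 9 measured protein-coding genes within 5 positions of chk1, meu27 was the only one called in chk1 cells, and the other 8 differed from wild type by -0.17 to 0.03. On the other side of chk1, ubc11, a ubiquitin-conjugating enzyme gene, differed by -0.06 ± 0.05. The gene beyond meu27, ppc1, differed by -0.16 ± 0.08. In chk1 cells 0.691% of all genes were called in either direction. In rad3 cells 1 of 10 measured neighbours of rad3 was called, mxr2, next to it, at 0.39 ± 0.06, against 11.6% of all genes. In cds1 cells 3 of 9 were called, among them tho3, next to cds1, at 0.57 ± 0.08, against 14.1% of all genes. In rad3 sep1 cells 3 of 10 neighbours of sep1 were called, in a strain where 54.4% of all genes were. The part of the chk1 allele itself in the level of meu27 was not tested, and mutation of chk1 and change at its locus cannot be told apart in 1 mutant. None of the other 6 genes lay within 5 protein-coding genes of rad3, cds1, chk1 or sep1.

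**Figure D3:**
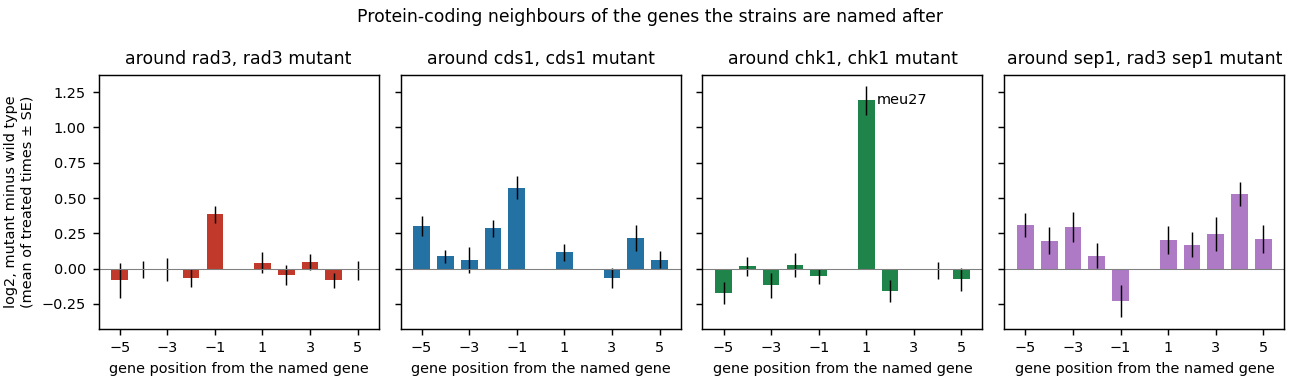
Log2 difference, mutant minus wild type over the treated times (vertical axis, bars with SE), of the protein-coding genes up to 5 positions (horizontal axis) from rad3, cds1, chk1 and sep1, each in its own mutant. meu27 stands at 1.19 beside chk1, and the other 8 measured neighbours of chk1 lie between -0.17 and 0.03.

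The 4 genes closest to each of the other 6 genes were looked at in the same way. Of 23 such genes with a value, 6 were called in rad3, where 11.6% of all genes were called in either direction. The differences of the 23 ran from -0.31 to 0.28, below the 1.02 to 1.93 of the 6 genes.

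Mutants were then set against each other over the treated times, a contrast that does not use wild type. Untreated, 6 of the genes were among the most raised in rad3. Lower levels than in rad3 thus follow in part from the choice. In cds1, 6 genes were lower than in rad3, against 3.8% of all genes lower. In chk1, 6 genes were lower and meu27 was higher than in rad3, against 9.49% lower and 7.32% higher. For SPCC737.04 cds1 minus rad3 was -1.63 ± 0.11 and chk1 minus rad3 -1.61 ± 0.11, and for lsd90 they were -1.08 ± 0.08 and -1.10 ± 0.08. The 2 effector mutants differed from each other in 3 genes: chk1 minus cds1 was 0.64 ± 0.09 for SPBC19C7.04C (adjusted p = 3.4e-07), 1.06 ± 0.10 for meu27 (adjusted p = 9.1e-12) and -0.38 ± 0.09 for gpd3 (adjusted p = 0.0045). Of all genes, 4.27% were higher and 4.41% lower in that contrast. For lsd90 it was -0.03 ± 0.08 and for SPCC737.04 0.02 ± 0.11, neither past the threshold.

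In rad3 sep1, 3 of the genes were lower than in rad3, against 29.2% of all genes lower in this contrast. They were ddr48 at -0.28 ± 0.10 (adjusted p = 0.012), gpd3 at -0.40 ± 0.13 (adjusted p = 0.0080) and SPCC1739.08C at -0.38 ± 0.11 (adjusted p = 0.0040). For SPBC19C7.04C the difference was -0.04 ± 0.12 and for SPCC737.04 0.19 ± 0.15, neither past the threshold. Without the 10 min samples 1 of the 7 genes was called in this contrast. Of the 3 calls, those of ddr48 and SPCC1739.08C cannot be taken as independent.

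**Figure D4:**
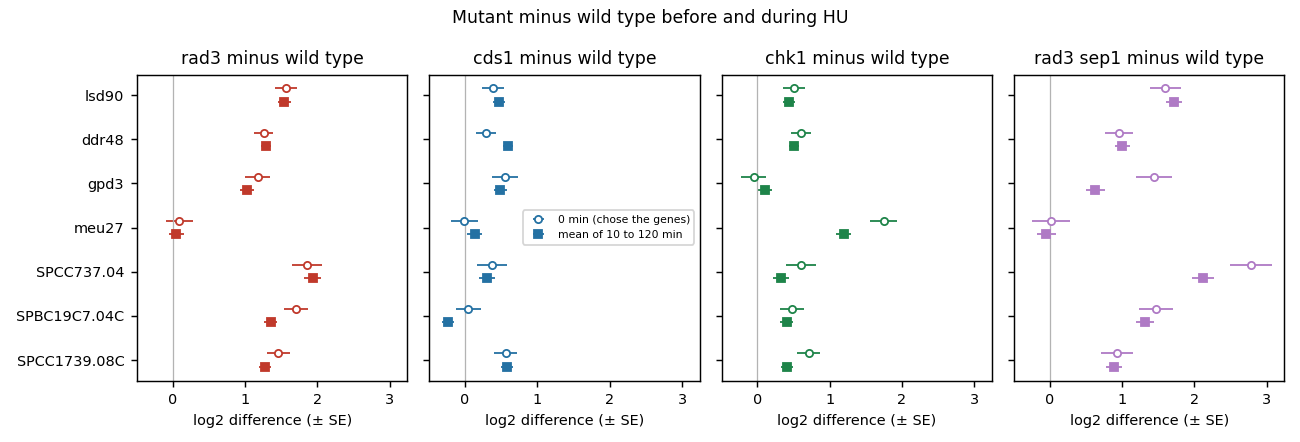
Log2 difference from wild type (horizontal axis, ± SE from the fit) of each gene (rows) in the 4 mutants, at 0 min (open circles, the values that chose the genes) and as the mean of 10, 30, 60 and 120 min (filled squares). In rad3, 6 genes stood at 1.02 to 1.93 over the treated times and meu27 at 0.05, and in chk1 meu27 stood at 1.19.

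The untreated differences, which chose the genes, were as follows. Untreated rad3 cells exceeded untreated wild type by 1.17 to 1.85 in the 6 genes other than meu27. In untreated cds1 cells the differences ran from -0.01 for meu27 to 0.56 for SPCC1739.08C. In untreated chk1 cells they ran from -0.05 for gpd3 to 1.75 for meu27. In untreated rad3 sep1 cells SPCC737.04 was above wild type by 2.78, from 1 sample. Ranked among 4921 genes by the untreated difference in rad3, the 6 genes took places between 3 and 10, and meu27 took place 1 in chk1.

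The treated times themselves were compared as the mean of 60 and 120 min minus the mean of 10 and 30 min, which leaves out the untreated samples. Late levels were higher than early ones for 2 of the 7 genes in rad3, 5 in cds1, 4 in chk1, 3 in rad3 sep1 and 5 in wild type. The shares of all genes called higher were 6.89%, 9.08%, 6.89%, 6.58% and 7.01% in the same strains. lsd90 rose in every strain by limma, though not in rad3 or rad3 sep1 under quantile normalization. The rises were 0.48 ± 0.11 in rad3, 1.35 ± 0.11 in cds1, 0.86 ± 0.11 in chk1, 1.45 ± 0.19 in rad3 sep1 and 1.04 ± 0.12 in wild type. Under quantile normalization 0 calls were left in rad3 and 0 in rad3 sep1, with -0.133 for lsd90 and -0.222 for gpd3 in rad3 and -0.000381 for SPCC1739.08C in rad3 sep1. ddr48 rose by 0.83 ± 0.09 in cds1, 0.43 ± 0.10 in chk1, 0.67 ± 0.16 in rad3 sep1 and 0.36 ± 0.11 in wild type, and its 0.24 ± 0.10 in rad3 missed the threshold. gpd3 rose by 0.39 ± 0.13 in rad3, 0.69 ± 0.13 in cds1 and 0.69 ± 0.14 in wild type. The gpd3 call in rad3 was lost in 6 of the 11 fits that left out 1 sample, with values from 0.19 to 0.59.

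SPBC19C7.04C rose by 0.40 ± 0.12 in cds1, 0.45 ± 0.13 in chk1 and 0.61 ± 0.13 in wild type. In rad3 its change was 0.03 ± 0.13. SPCC1739.08C rose by 0.92 ± 0.11 in cds1, 0.38 ± 0.12 in chk1, 0.60 ± 0.19 in rad3 sep1 and 0.52 ± 0.12 in wild type. Its 0.16 ± 0.12 in rad3 missed the threshold. Leaving out 1 sample lost the call of SPCC1739.08C in chk1 in 5 of 11 fits, that of SPBC19C7.04C in cds1 in 3 of 12 and that of ddr48 in wild type in 4 of 10. meu27 and SPCC737.04 passed the threshold in none of the 5 strains. The smaller late rises in rad3 were not shown to differ from those in wild type. Tested as an interaction by limma, 0 of the 7 genes passed in rad3, cds1, chk1 or rad3 sep1, with 3, 2, 0 and 1 at an unadjusted p under 0.05. Under that unadjusted p were 816, 597, 73 and 524 of all 4921 genes in the same order. Of all genes, 2.8% passed in rad3, 2.05% in cds1, 0% in chk1 and 1.91% in rad3 sep1. The widest was SPBC19C7.04C in rad3, whose late rise differed from that in wild type by -0.58 ± 0.18 (adjusted p = 0.073). For lsd90 in rad3 it was -0.56 ± 0.17 (adjusted p = 0.054), and leaving out 1 sample brought it past the threshold in 6 of 21 fits. With all 70 arrays as samples, or with a replicate block in the fit, 2 genes passed in rad3 and 1 in cds1. The fit of 70 arrays counts near-identical arrays as separate samples.

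**Figure D5:**
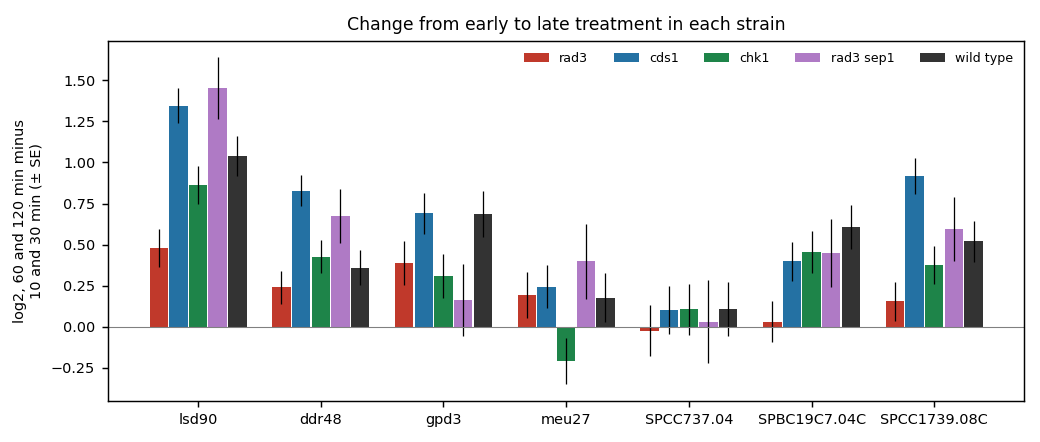
Log2 change from early (mean of 10 and 30 min) to late treatment (mean of 60 and 120 min) on the vertical axis, for each gene and strain, with bars for the fitted change and lines for SE. lsd90 stood at 0.48 in rad3 (-0.133 under quantile normalization) and 1.35 in cds1 against 1.04 in wild type, while SPCC737.04 lay between -0.02 and 0.11.

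Stress genes were taken from a list of 30 core environmental stress genes. The counts are of the 28 that were measured, with any of the 7 genes left out. In rad3, 23 of the 28 were higher than in wild type and 1 was lower, with a median difference of 0.54. In cds1 there were 19 higher and 1 lower (median 0.36), in chk1 4 higher and 0 lower (median 0.15), and in rad3 sep1 21 higher and 3 lower (median 0.56). The smallest adjusted p values in rad3 were those of zym1, a metallothionein gene, at 2.29 ± 0.12, hsp16, a small heat shock protein gene, at 1.43 ± 0.08, gst2, a glutathione transferase gene, at 1.02 ± 0.06, and SPCC663.08C at 1.21 ± 0.08. In cds1 hsp16 stood at 1.19 ± 0.08, gst2 at 0.74 ± 0.06 and SPCC663.08C at 1.02 ± 0.08. In chk1 zym1 stood at 0.61 ± 0.12 and hsp16 at 0.41 ± 0.08. Against rad3, 10 of the 28 were lower and 0 higher in cds1, and 18 were lower and 1 higher in chk1. Of all genes, 3.8% were lower in cds1 than in rad3, and 9.49% lower and 7.32% higher in chk1 than in rad3. Against wild type, 6.32% of all genes were higher in rad3, 5.93% in cds1, 0.427% in chk1 and 25.3% in rad3 sep1. Lower than wild type were 5.3%, 8.15%, 0.264% and 29.1% in the same order.

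Of 16 measured regulators of the Sty1 pathway, 5 were higher in rad3, 4 in cds1, 1 in chk1 and 9 in rad3 sep1, and 0 were lower by limma in any of the 4. They included pyp2, a phosphatase gene of Sty1, at 0.52 ± 0.07 in rad3 and 0.39 ± 0.07 in cds1, and srk1, a kinase gene downstream of Sty1, at 0.47 ± 0.06 in rad3 and 0.40 ± 0.06 in cds1. In chk1 the 1 gene was pyp1, another phosphatase gene of Sty1, at 0.33 ± 0.06. Of all genes, 6.32% were higher in rad3, 5.93% in cds1, 0.427% in chk1 and 25.3% in rad3 sep1. Lower were 5.3%, 8.15%, 0.264% and 29.1% in the same order.

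Likeness was described by Pearson's r over the 25 means of strain and time, which share the reference and the arrays, and no p is given. Among the 7 genes, the 15 pairs without meu27 had r from 0.67 to 0.98, and meu27 had r from -0.31 to -0.02 with the others. The 5 means at 0 min are values that chose the genes, so this likeness is partly fixed by the choice. Over the 20 treated means r was 0.60 to 0.98 among the 6 genes and -0.35 to -0.02 for meu27. Outside the set, the genes most like the mean of the 7 were SPAC23C11.06C (r = 0.93), SPAC4H3.08 (r = 0.93), zym1 (r = 0.90) and mug108 (r = 0.89). They were followed by cum1, SPAC3G6.07, SPACUNK4.17, SPCC1393.12, SPBC725.03 and SPAC15E1.02C, with r from 0.86 to 0.85. In rad3 these 10 genes differed from wild type by 0.60 for SPAC3G6.07 to 2.29 for zym1 over the treated times. These differences follow in part from picking the genes by likeness over the same means. Taken singly, lsd90 was most like SPACUNK4.17 (r = 0.95), gpd3 most like zym1 (r = 0.88), and SPCC737.04 and SPBC19C7.04C both most like SPAC4H3.08 (r = 0.89 and r = 0.91). ddr48 and SPCC1739.08C were most like each other (r = 0.98). For meu27 the nearest were sea4 (r = 0.69) and ppk24 (r = 0.67), well below the likeness found for the other 6.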

How the data were processed

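The deposited values were log2 ratios of sample (Cy5) to untreated wild-type reference (Cy3), per the labels. The sources used here do not give their normalization, and no scaling was added. Of 9858 probes, 9632 had 1 symbol in the platform annotation, 44 had several and 182 none. The 2 probes of a gene were averaged. Of 4929 features, 4921 were tested, those measured on 2 or more arrays in each group, and 0.238% of values were missing. Within groups, 9 of 65 array pairs were averaged, because the difference between their arrays had r under 0.1 between probes (-0.00233 to 0.0317, against 0.113 to 0.488 in other pairs).

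Means of 25 groups of strain and time were fitted with limma 3.58.1 (lmFit, eBayes) in R 4.3.3, with Benjamini-Hochberg adjustment over all genes and a threshold of 0.05. Treated values weight 10, 30, 60 and 120 min equally. The script was tested on simulated data. Figures were drawn with matplotlib 3.10.9 and pandas 2.3.3 in Python 3.11.15. The genes and lists were chosen with earlier results of these data known. Named genes were the 7 members, the mutated genes, the most alike genes by r, tdh1, and up to 4 per list with the smallest adjusted p. The series text calls the replicates biological, and p-values measure the spread between the samples left after averaging, taken as independent across times.

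Replicate numbers were checked for pairing by the correlation of deviations from group means. Every pair was over 0.1 between chk1 and cds1 (10 of 10), within chk1 (12 of 12) and within wild type (7 of 7). It was not between rad3 and wild type (6 of 7), cds1 and wild type (7 of 8) or chk1 and wild type (7 of 8). Across the treated times of a strain, samples of the same replicate number also deviated together. The median r was 0.36 in rad3, 0.44 in cds1, 0.53 in chk1 and 0.39 in wild type. The main fit takes such samples as independent, so SE and p over the treated times may be too small. No alternative below used a block of strain and replicate. Alternatives were 70 arrays, median centring, quantile normalization, single probes, the filter, only the strains compared, robust eBayes, array weights, a fixed or random replicate block, and leaving out samples. Leaving out a treated time was added after seeing the data.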

Additional observations from a re-analysis of the deposited data

Results flagged for a closer look

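At 0 min, whose values chose the genes, mutants already differed, as for SPCC737.04 with means of 1.19 in rad3 and -0.29 in cds1. The differences between mutants below, over the treated times, passed the threshold by limma. They mark levels that differ from one mutant to another, which follow in part from the choice. For cds1 minus rad3 they were -1.08 for lsd90, -0.69 for ddr48, -0.53 for gpd3, -1.63 for SPCC737.04, -1.59 for SPBC19C7.04C and -0.69 for SPCC1739.08C. For chk1 minus rad3 they were -1.10 for lsd90, -0.78 for ddr48, -0.91 for gpd3, 1.14 for meu27, -1.61 for SPCC737.04, -0.95 for SPBC19C7.04C and -0.87 for SPCC1739.08C. For chk1 minus cds1 they were -0.38 for gpd3, 1.06 for meu27 and 0.64 for SPBC19C7.04C. For rad3 sep1 minus rad3 they were -0.28 for ddr48, -0.40 for gpd3 and -0.38 for SPCC1739.08C. The values for ddr48 and SPCC1739.08C are means of 2 probes that did not move together.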

How the results depend on the processing

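With 1 sample left out in turn, the number of the 7 genes called over the treated times stayed at 6 to 6 in rad3, 4 to 5 in cds1, 4 to 5 in chk1 and 6 to 6 in rad3 sep1 against wild type. Between mutants it stayed at 6 to 6 for cds1 minus rad3, 7 to 7 for chk1 minus rad3, 3 to 3 for chk1 minus cds1 and 3 to 3 for rad3 sep1 minus rad3. Summed over the 4 single times it ran from 23 to 24 in rad3, 4 to 7 in cds1, 1 to 2 in chk1 and 19 to 21 in rad3 sep1. Late minus early counts ran from 0 to 3 in rad3, 4 to 5 in cds1, 2 to 4 in chk1 and 4 to 5 in wild type, and the interaction from 0 to 1 in rad3 and 0 to 0 in cds1, chk1 and rad3 sep1. The double mutant had 1 sample per time, so none of its samples was left out, and its late change was not fitted within its own strain.

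Other settings moved these counts, and the cause was not tested. The setting of 70 arrays takes near-identical arrays as separate samples. For chk1 against wild type over the treated times, where 5 genes were called, the first probe alone gave 2, the second 3, and leaving out the 10 min or the 30 min samples gave 3 and 2. For the single times of chk1, where 2 calls were made in all, 70 arrays gave 7, the first probe 4, the second 1, the replicate block 4 and the random replicate block 4. Requiring values on all arrays gave 0, since meu27 then drops out. For those of cds1, with 6 calls, 70 arrays and array weights gave 10 each and the first probe 3. For rad3 sep1 minus rad3, with 3 calls, the first probe gave 1 and leaving out 10 min gave 1. Late minus early, the 5 calls of cds1 became 3 on the first probe, and the 4 of chk1 became 2 on the first probe and 2 under quantile normalization. The 2 calls of rad3 became 1 with 70 arrays, with no filter, with only the strains compared and on the second probe, and 0 under quantile normalization. The 3 of rad3 sep1 became 5 with 70 arrays and 0 under quantile normalization. The interaction in rad3, with 0 calls, had 2 with 70 arrays, array weights, quantile normalization, the replicate block and the random replicate block. It had 1 with median centring, with values on all arrays, with only the strains compared and on the second probe. That in cds1 had 1 with 70 arrays, array weights, either probe, the replicate block and the random replicate block. Quantile normalization also moved the untreated median difference to 0.783 in chk1, 1.76 in rad3 and 1.64 in rad3 sep1, against 0.60, 1.46 and 1.44. The replicate block changed no count of calls over the treated times by over 1.5 times. It added 11 calls of single genes and removed 0, among them meu27 in chk1 at 60 min (adjusted p = 0.014 by limma) and 120 min (adjusted p = 0.010), and SPCC737.04 over the treated times in chk1 (adjusted p = 0.035) and cds1 (adjusted p = 0.015).

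Of 5371 values of single genes under other settings, 5133 kept their direction and side of the threshold or stayed uncalled, 126 of these with a change of sign. A call was lost in 118, 44 of them on 1 probe, and gained in 103. A further 17, 14 of them on 1 probe, changed sign and had been called or became so. On the second probe ddr48 had -0.0566 late minus early in cds1, 0.0130 in cds1 minus rad3, 0.181 in chk1 minus rad3, and -0.426 and -0.145 at 10 and 60 min in rad3 sep1 minus wild type. On its first probe SPCC1739.08C had -0.0418 late minus early in cds1, -0.0368 in chk1, 0.0579 in cds1 minus rad3, 0.0256 in chk1 minus rad3 and -0.00501 at 120 min in rad3 minus wild type. Against wild type rad3 sep1 had -0.232 and -0.450 at 10 and 60 min and -0.0514 over the treated times on that probe. lsd90 had -0.508 in rad3 sep1 minus rad3 on the first probe. Under quantile normalization late minus early was -0.133 for lsd90 and -0.222 for gpd3 in rad3, and -0.000381 for SPCC1739.08C in rad3 sep1.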

Other observations

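Genes of other lists are given here as values over the treated times. Of 13 measured genes on a nitrogen starvation list, 3 were higher and 1 lower than wild type in rad3, and 0 and 2 in cds1. In chk1 there were 0 and 0, and in rad3 sep1 4 and 2. All genes called higher and lower made up 6.32% and 5.3% in rad3, 5.93% and 8.15% in cds1, 0.427% and 0.264% in chk1, and 25.3% and 29.1% in rad3 sep1. Among the 13 genes isp6, a protease gene, was higher by 0.51 ± 0.05 in rad3. The 1 gene lower in rad3 was fio1, an iron uptake oxidase gene, at -0.93 ± 0.10. It was also 1 of the 2 lower in cds1, at -0.81 ± 0.10. Of 7 genes on a list of M-cell type, 0 were higher and 1 lower in rad3, and 0 and 1 in cds1. In chk1 there were 0 and 0, and in rad3 sep1 1 and 1. The gene lower in rad3 was ste6, at -0.78 ± 0.17, which is not specific to M cells in fission yeast. Of 4 P-cell type genes, 0 were higher in rad3, 1 in cds1, 0 in chk1 and 1 in rad3 sep1, with 0 lower by limma. Of 8 auxotrophy marker genes, 0 were higher in each mutant and 1, 1, 1 and 2 were lower in rad3, cds1, chk1 and rad3 sep1.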
